A study of Mus musculus with 12 samples.

Results

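The 45 genes described here encode the enzymes, lipid droplet proteins, fatty acid carriers and regulators that burn, make and store fatty acids in mouse cells. They were chosen by name, from mouse gene symbols matched to the Ensembl identifiers of the count tables, and all 45 were found among the 48709 genes listed. Of these, 42 passed the filter on low counts and were tested among 14408 genes; Cd36, a fatty acid transporter, Fabp3, a fatty acid binding protein of heart and muscle, and Pparg, the adipocyte regulator, were near 0 in every library and were not tested. The 45 names were chosen with earlier results of these data known. Shares of members set beside those of all genes are therefore descriptions and not tests. The members fall into 6 classes by role: 11 genes of fatty acid oxidation, 4 acyl-CoA synthetases, 11 genes of synthesis and desaturation, 8 of lipid droplet storage and lipolysis, 5 of uptake and binding, and 6 transcriptional regulators.

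RNA was sequenced from mouse embryonic fibroblasts (MEFs, cells grown out of the connective tissue of embryos) of the C57BL/6 strain, which served as isogenic wild type (WT) or carried the label TAZKo. The series describes the latter as cells without tafazzin, and the counts of the gene itself, given below, do not show a loss. Tafazzin is the enzyme that remodels the acyl chains of cardiolipin, a phospholipid of the inner mitochondrial membrane. The design crossed genotype with oxygen in 4 groups of 3 libraries: WT in normoxia, WT in hypoxia, TAZKo in normoxia and TAZKo in hypoxia, with 24 hours in a hypoxia workstation at an oxygen level that the labels do not give. All groups were grown in DMEM with 10% fetal bovine serum, and the labels do not say how the cells were made TAZKo, nor whether the lines are clones. They also do not say whether the 3 libraries of a group came from separate cultures, so the p-values measure the spread between these libraries, which may be technical.

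Fatty acids enter a cell through carriers, are activated to acyl-CoA by the acyl-CoA synthetases, and then go one of several ways. The carnitine palmitoyltransferases carry them into the mitochondrion, where the acyl-CoA dehydrogenases and the enzymes after them shorten the chain step by step and use oxygen through the respiratory chain. In the cytosol, ATP citrate lyase, acetyl-CoA carboxylase and fatty acid synthase build new chains, which elongases and desaturases modify, and the diacylglycerol acyltransferases and perilipins put the surplus into lipid droplets. Hypoxia is known to favour droplet storage over oxidation in many cell types, and the serum in the medium supplies fatty acids as well.

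Library depth was 21039451 to 31204510 counts, at which 3 counts correspond to 0.0927 to 0.15 CPM, the count scaled to library size. CPM values were scaled with TMM, a normalization that allows for differences in library composition, and every group mean is given ± SD with n = 3. The tafazzin gene itself, Taz, was not lower in the libraries labelled TAZKo: it was at 38, 33.2 and 32.6 CPM in the WT normoxia libraries and at 45.8, 39.8 and 40.9 CPM in those labelled TAZKo, and at 25.5, 26.4 and 23.5 CPM against 33.6, 32.8 and 35 CPM in hypoxia. The difference was a log2 value of 0.29 (SE 0.079, adjusted p = 0.0139) in normoxia and 0.43 (SE 0.081, adjusted p = 0.00112) in hypoxia by edgeR's quasi-likelihood test, so the groups are named by their labels throughout, and gene-level counts cannot show a deletion of part of the gene. Of 10 fibroblast markers, 9 reached 1 CPM in every group, with Thy1 below it. Their levels were uneven: in WT normoxia Col1a2 was at only 5.33 ± 0.594 CPM, and Col1a1 at 2833 ± 402 CPM. They also differed by genotype in both directions. In TAZKo normoxia Col1a1 was lower, at 1152 ± 14.3 CPM, and Pdgfrb was higher, at 104 ± 6.62 against 49.6 ± 4.3 CPM. Of 7 adipocyte markers 0 reached 1 CPM, their summed level being 0.0927 to 0.45 CPM per library. Summed epithelial markers, nearly all from the keratin gene Krt14, were at 198 to 281 CPM in the libraries labelled WT and at 98.9 to 138 CPM in those labelled TAZKo, and summed endothelial markers, mostly Tek, were at 14.5 to 20.99 CPM against 3.89 to 7.44 CPM. The part of these markers in the genotype differences was not tested. Replicate 1 of the WT normoxia libraries stood apart from the other two (chi-square per degree of freedom of 34.6 and 41.6 against them, and 5.54 between those), so member counts are also given without it.

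**Figure D1:**
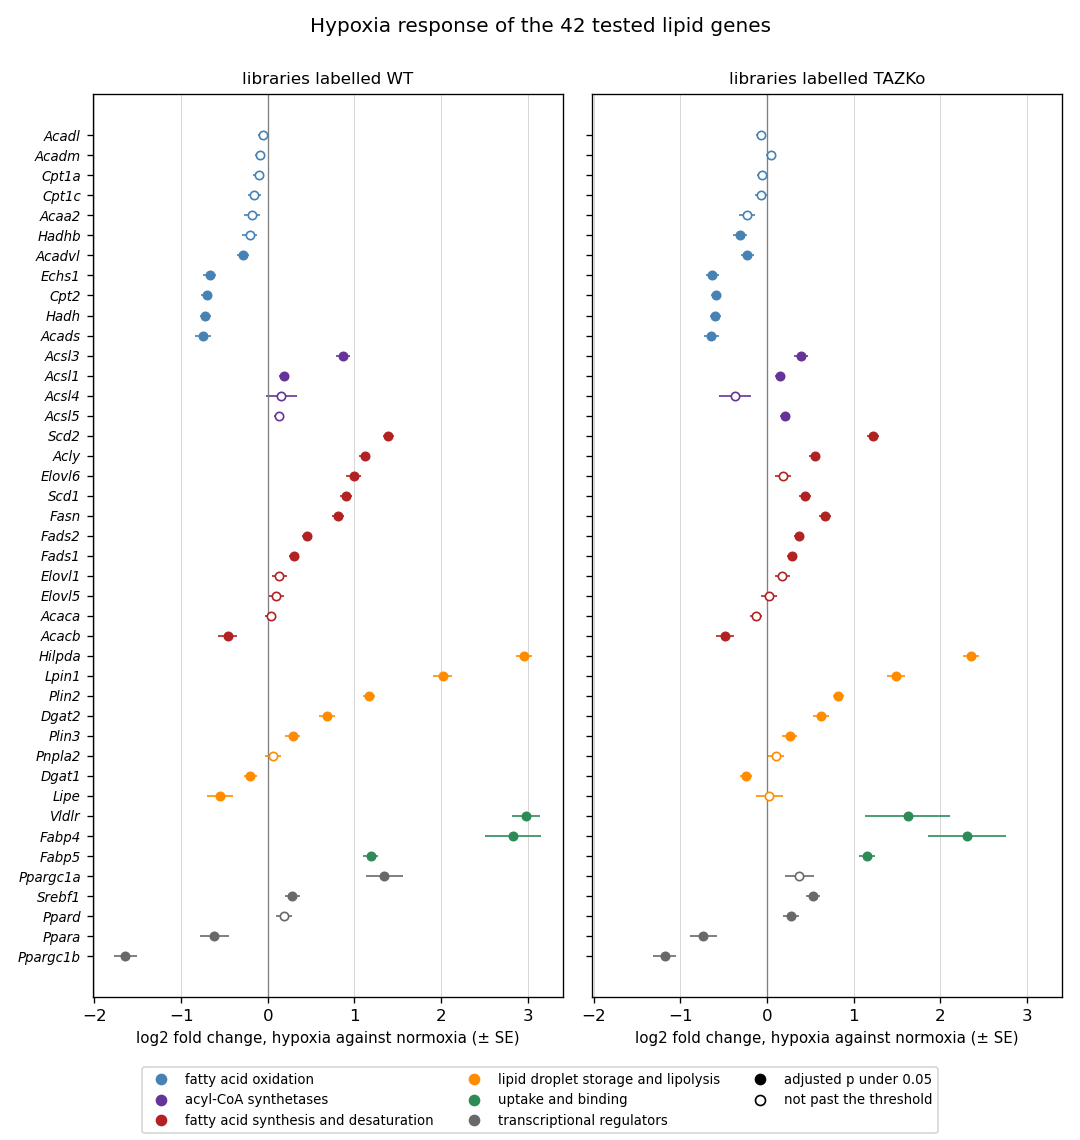
Log2 fold change (x axis, hypoxia against normoxia, ± SE, n = 3 libraries per group) of each of the 42 tested genes (y axis), in the libraries labelled WT (left) and TAZKo (right), coloured by class; filled points passed an adjusted p of 0.05 in edgeR's quasi-likelihood test. Hilpda stood at 2.95 and 2.36, the filled oxidation genes lay below 0 in both panels, and most storage and synthesis genes lay above 0.

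In WT hypoxia 7 of 11 genes of synthesis and 5 of 8 of storage rose, and 5 of 11 oxidation genes fell, and in TAZKo hypoxia these counts were 6, 5 and 6. The exceptions included Acacb and Dgat1, which fell in both genotypes, and Lipe, which fell in WT. In the libraries labelled WT, 19 of the 42 tested members rose and 10 fell, by edgeR's quasi-likelihood test at an adjusted p (Benjamini-Hochberg over all tested genes) under 0.05. These are 69% of the members, where 51.0% of all 14408 tested genes passed (26.0% up and 25.0% down). In the libraries labelled TAZKo, 19 rose and 10 fell, where 43.8% of all genes passed (22.2% up and 21.6% down). The lists overlapped in 17 risers, of 19 in each, and in 9 of the 10 genes that fell, and 0 members moved in opposite directions. The largest rises in the libraries labelled WT were those of Vldlr, Hilpda and Fabp4, and the largest fall was that of Ppargc1b. Fabp4 reached 10 counts in only 1 of the 3 WT normoxia libraries and in 0 of the TAZKo normoxia libraries. It thus entered the test through hypoxia, where it was high, and is counted among the 19 risers of each genotype. Vldlr, counted among the TAZKo risers too, reached 10 counts in 0 TAZKo libraries. In bulk samples such as these, fewer cells of a type and less RNA per cell cannot be told apart.

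These splits depend on how libraries are scaled. With library size alone in place of TMM, the median of all genes moved by -0.11 on the log2 scale in WT and by -0.094 in TAZKo, and 16 members rose and 16 fell in WT, and 15 rose and 14 fell in TAZKo. Over all genes the share of calls that were rises moved from 51.0% to 38.1% in WT and from 50.7% to 36.0% in TAZKo. Without WT normoxia replicate 1, 22 rose and 11 fell in WT, and 22 rose and 12 fell in TAZKo. The members that passed in WT only without it were Elovl1 at a log2 value of 0.23 (adjusted p = 0.00866), Pnpla2 at 0.19 (adjusted p = 0.0177), Ppard at 0.31 (adjusted p = 0.00119) and Hadhb at -0.30 (adjusted p = 0.00346). In TAZKo they were Acaa2, Acsl4, Elovl1, Elovl6 and Ppargc1a, with adjusted p up to 0.0239.

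Leaving out 1 library also chose the genes and the scaling anew, and this moved the median of all genes in WT hypoxia by -0.0565 to -0.0163 on the log2 scale, also where the library was not of WT. A second set of 12 fits, added after the data were seen, kept the genes and TMM factors of all 12 libraries (-0.0165 to 0.0165). A call is given here as lost, or gained, without a library where either fit showed it.

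Among the 11 oxidation genes, 5 fell in the libraries labelled WT and 6 in those labelled TAZKo, and 0 rose in either by edgeR (also 0 at an unadjusted p under 0.05, and 0 with DESeq2). Calls made up 45.5% and 54.5% of the class, where 51.0% and 43.8% of all genes were called (25.0% and 21.6% down). The median log2 fold change of the class was -0.21 in WT and -0.23 in TAZKo, where that of all tested genes was 0.0089 and -0.0088. The genes that moved most act at different steps of the same pathway. Acads, the dehydrogenase for short-chain acyl-CoA, was at 153, 122 and 124 CPM in WT normoxia and at 88.1, 77.1 and 72.5 CPM in WT hypoxia. In the libraries labelled TAZKo it was at 119, 113 and 109.9 CPM in normoxia and 73.4, 74.2 and 71.8 CPM in hypoxia. All hypoxia libraries lay below all normoxia libraries, and the log2 fold change was -0.75 (SE 0.089, adjusted p = 1.13e-05) in WT and -0.64 (SE 0.089, adjusted p = 6.69e-05) in TAZKo.

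Hadh, which oxidises the hydroxyacyl-CoA intermediate of short and medium chains, was at 138, 132 and 127 CPM in WT normoxia and 86.4, 80.3 and 74 CPM in WT hypoxia, and at 142, 137 and 139 and 91.7, 94.8 and 90.3 CPM in the TAZKo groups. Its groups did not overlap, with log2 fold changes of -0.72 (SE 0.063, adjusted p = 5.89e-07) and -0.60 (SE 0.062, adjusted p = 5.12e-06). Cpt2, the inner-membrane carnitine palmitoyltransferase that hands acyl groups back to CoA inside the mitochondrion, was at 53.9, 46.4 and 50.1 CPM in WT normoxia and at 31.2, 30.5 and 30.6 CPM in WT hypoxia. In TAZKo it went from 57.9, 55.9 and 59.5 to 38.7, 39.1 and 37.7 CPM. Cpt2 thus fell in both genotypes without overlap, by log2 values of -0.70 (SE 0.064) and -0.59 (SE 0.062). Echs1, the short-chain enoyl-CoA hydratase, fell from 162 ± 10.4 to 102 ± 8.0 CPM in WT and from 174 ± 9.06 to 112 ± 3.9 CPM in TAZKo, again with no overlap.

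**Figure D2:**
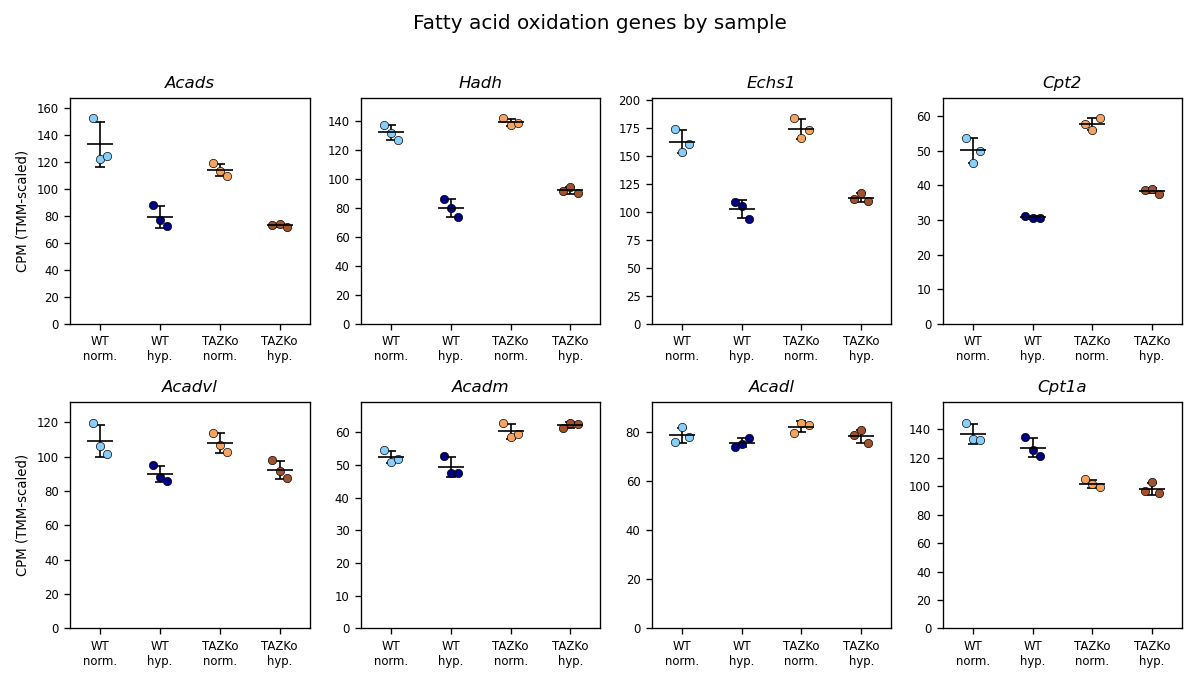
TMM-scaled CPM (y axis, linear from 0) of 8 fatty acid oxidation genes in each of the 12 libraries (points), with the mean and SD (n = 3) of each group (x axis: WT and TAZKo, normoxia and hypoxia). Acads, Hadh, Echs1, Cpt2 and Acadvl were lower in hypoxia than in normoxia in both genotypes, and Cpt1a was lower in the libraries labelled TAZKo than in those labelled WT in both conditions.

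Other oxidation genes moved less or did not pass. Acadvl, the very-long-chain dehydrogenase of the inner membrane, fell from 109 ± 9.24 to 89.7 ± 4.63 CPM in WT (log2 -0.28, adjusted p = 0.00535) and from 108 ± 5.75 to 92.3 ± 5.23 CPM in TAZKo (-0.23, adjusted p = 0.0234). The latter call was lost without TAZKo normoxia replicate 1 or 2 or TAZKo hypoxia replicate 2 or 3 (adjusted p up to 0.0989). Of the Acadvl exons, 42.9% overlap exons on the opposite strand, and how the counting treated strand is not given in the sources used here, so its reads cannot be fully told apart from those of Dvl2. Hadhb, the thiolase subunit of the mitochondrial trifunctional protein, was at 14.3, 17 and 17.5 CPM in WT normoxia against 14.4, 14 and 13.8 CPM in hypoxia, which overlap. It fell in TAZKo, from 15.1, 14.7 and 15.7 to 11.8, 12 and 12.9 CPM (-0.31 (SE 0.085, adjusted p = 0.00891)), while the WT value was -0.21 (SE 0.085, adjusted p = 0.052) and, with the replicate number as a block, -0.21 (adjusted p = 0.0439). With the scaling chosen anew the WT value also passed without most single libraries, and with it kept it passed only without WT normoxia replicate 1.

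Cpt1a, the outer-membrane carnitine palmitoyltransferase that controls entry into the mitochondrion, did not pass the test in hypoxia with all libraries. It was at 144, 133 and 132 CPM in WT normoxia and 135, 125 and 121 CPM in WT hypoxia, with log2 values of -0.11 (SE 0.061, adjusted p = 0.166) in WT and -0.054 (SE 0.061, adjusted p = 0.514) in TAZKo. Cpt1c, a brain-type relative of it, was at 32.6 ± 2.29 and 29.3 ± 0.799 CPM in the WT groups and also did not pass. Both passed in WT without most single libraries where the scaling was chosen anew (adjusted p down to 0.018 for Cpt1a and 0.0164 for Cpt1c) and in 0 of 12 such fits where it was kept, and Cpt1a also passed with library size alone (adjusted p = 0.00966). The medium- and long-chain dehydrogenases Acadm and Acadl did not pass in either genotype, although Acadm did in WT without WT hypoxia replicate 1 (adjusted p down to 0.0155). Acadl was at 78.8 ± 3.03 CPM in WT normoxia and at 75.6 ± 1.85 CPM in WT hypoxia, and Acadm at 52.4 ± 1.82 and 49.2 ± 3.07 CPM. Acaa2, the mitochondrial thiolase that ends each round, was at 84.5, 69.7 and 72.4 CPM in WT normoxia and at 75.3, 63.9 and 60.8 CPM in hypoxia. Those Acaa2 groups overlapped, and its log2 value of -0.18 (SE 0.10, adjusted p = 0.133) did not pass, while with the replicate block it was -0.18 (adjusted p = 0.0349) and it also passed without WT normoxia replicate 2, WT hypoxia replicate 1 or TAZKo hypoxia replicate 3 (adjusted p down to 0.0109).

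Of the 4 acyl-CoA synthetases, which trap fatty acids in the cell as acyl-CoA, 2 rose in WT and 3 in TAZKo, and Acsl3 moved most. These are 50% and 75% of the class, where 51.0% and 43.8% of all genes were called (26.0% and 22.2% up). Acsl3, the form found on the endoplasmic reticulum and on lipid droplets, was at 89.1, 113 and 110.3 CPM in WT normoxia and at 188, 194 and 187 CPM in WT hypoxia. In TAZKo it was at 91.6, 91.5 and 96 CPM in normoxia and 122, 128 and 116 CPM in hypoxia, so that every hypoxia library lay above every normoxia library. The log2 rise was 0.86 (SE 0.08, adjusted p = 1.04e-06) in WT and 0.39 (SE 0.079, adjusted p = 0.00132) in TAZKo. Acsl1, the main form of fat and heart, was at 40.0 ± 1.73 and 45.4 ± 1.4 CPM in the WT groups and its small rise (0.18 in WT, 0.16 in TAZKo) was lost with library size alone. Leaving out 1 library with the scaling chosen anew, it passed in 1 of 12 fits in WT (adjusted p up to 0.215) and in 1 of 12 in TAZKo (up to 0.258). With the scaling kept it passed in 11 of 12 in WT, all but that without WT hypoxia replicate 3 (adjusted p = 0.0689), and in 3 of 12 in TAZKo (up to 0.155). Acsl5, which is found on mitochondria and the endoplasmic reticulum, rose in TAZKo, from 62.2, 58.2 and 55.2 to 66.9, 69.5 and 66.5 CPM (0.21 (SE 0.061, adjusted p = 0.0137)). That call was lost without TAZKo normoxia replicate 2 or 3 or TAZKo hypoxia replicate 1 or 2 (adjusted p up to 0.124). Acsl4, which prefers arachidonic acid, spread widely in WT normoxia, at 130.5, 225 and 246 CPM, with replicate 1 lowest, and did not pass in either genotype, although it did in TAZKo without WT normoxia replicate 1 or TAZKo normoxia replicate 1 (adjusted p down to 0.00552).

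Of the 11 members of fatty acid synthesis and desaturation, 7 rose and 1 fell in WT, and 6 rose and 1 fell in TAZKo, with a median log2 fold change of 0.45 in WT and 0.29 in TAZKo. Calls made up 72.7% and 63.6% of the class, against 51.0% and 43.8% of all genes. Acly, ATP citrate lyase, which makes the cytosolic acetyl-CoA from which chains are built, was at 410.3, 376 and 372 CPM in WT normoxia and at 769, 869 and 874 CPM in WT hypoxia. The TAZKo libraries stood at 356, 352 and 352 CPM in normoxia and 516, 547 and 492 CPM in hypoxia. Hypoxia libraries lay above normoxia libraries in both genotypes, with log2 values of 1.12 (SE 0.065, adjusted p = 1.2e-08) and 0.55 (SE 0.065, adjusted p = 1.47e-05). Fasn, fatty acid synthase, rose from 497 ± 49.6 to 872 ± 51.9 CPM in WT (0.81 (SE 0.072)) and from 392 ± 10.2 to 624 ± 27.3 CPM in TAZKo (0.67 (SE 0.072)).

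The acetyl-CoA carboxylases, which commit acetyl-CoA to synthesis, were not among the risers. Acaca, the cytosolic form, was at 26.2, 25.7 and 26.4 CPM in WT normoxia and at 25.8, 27 and 27.2 CPM in WT hypoxia, which overlap, and did not pass in either genotype. Of the 50-base words of its exons, 52.6% are shared with the gene model Gm5182, so its counts are uncertain. Acacb, the form on the mitochondrial surface whose product inhibits carnitine palmitoyltransferase 1, was at 15.2, 11.3 and 12.7 CPM in WT normoxia and 10.4, 9.01 and 9.09 CPM in WT hypoxia, and at 21.1, 19.8 and 22.3 and 16.3, 15 and 14.1 CPM in TAZKo. It fell without overlap in both genotypes, by log2 values of -0.46 (SE 0.11, adjusted p = 0.00318) and -0.48 (SE 0.10, adjusted p = 0.0019).

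The desaturases rose. Scd2, a stearoyl-CoA desaturase that puts a double bond into saturated chains, was at 1891, 2192 and 2215 CPM in WT normoxia and at 5413, 5523 and 5590.0 CPM in WT hypoxia. In TAZKo it was at 1657, 1574 and 1650.0 CPM in normoxia and at 3731, 4048 and 3638 CPM in hypoxia. Its groups stood far apart, with log2 values of 1.39 (SE 0.067, adjusted p = 1.63e-09) and 1.23 (SE 0.066, adjusted p = 8.44e-09). Scd1, its close relative, was at 277, 321 and 322 CPM in WT normoxia and at 558, 587 and 581 CPM in WT hypoxia, and at 322, 329 and 341 and 438, 482 and 422 CPM in TAZKo. It rose by 0.91 (SE 0.069, adjusted p = 1.72e-07) and 0.44 (SE 0.069, adjusted p = 0.000188) without overlap. Per kilobase of exon, Scd2 stood at 384 CPM in WT normoxia against 62.7 for Scd1, and at 1008 against 118 in WT hypoxia, so that Scd2 was the more abundant of the pair in these groups. The Fads1 and Fads2 desaturases, which make polyunsaturated chains, rose by less: Fads1 from 395 ± 9.87 to 488 ± 23.7 CPM and Fads2 from 242 ± 9.34 to 331 ± 12.5 CPM in WT (log2 0.30 and 0.45).

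Of the 3 elongases, Elovl6 alone passed, and in WT only. Elovl6, which extends palmitate to stearate, was at 52.5, 67.1 and 67 CPM in WT normoxia and at 113, 129.9 and 128 CPM in WT hypoxia. The TAZKo libraries stood at 50.8, 51.3 and 51.4 CPM in normoxia and at 55.5, 56.9 and 62.1 CPM in hypoxia. Hypoxia libraries lay above normoxia libraries in both genotypes, with a log2 rise of 0.99 (SE 0.091, adjusted p = 1.04e-06) in WT and a value of 0.19 (SE 0.092, adjusted p = 0.119) in TAZKo that did not pass with all libraries. Elovl1, for very long saturated chains, was at 72.3 ± 8.59 and 79.3 ± 6.4 CPM in the WT groups, and Elovl5, for polyunsaturated chains, at 138 ± 19.9 and 147 ± 4.32 CPM.

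Of the 8 genes of storage and lipolysis, 5 rose and 2 fell in WT, and 5 rose and 1 fell in TAZKo. Calls made up 87.5% and 75% of the class, against 51.0% and 43.8% of all genes. Hilpda, a small droplet protein known as a hypoxia target and as an inhibitor of the lipase encoded by Pnpla2, was at 8.13, 7.5 and 7.6 CPM in WT normoxia and at 64.6, 56.3 and 58.8 CPM in WT hypoxia. In TAZKo it was at 7.74, 8.14 and 6.67 CPM in normoxia and 41.6, 37.4 and 36.1 CPM in hypoxia. Hypoxia values were 7.73-fold those of normoxia in WT and 5.12-fold in TAZKo, log2 values of 2.95 (SE 0.093, adjusted p = 2.75e-11) and 2.36 (SE 0.092, adjusted p = 2.93e-10). Lpin1, the lipin that makes diacylglycerol from phosphatidic acid, was at 17.1, 18.3 and 19.3 CPM in WT normoxia and 60.4, 79.1 and 81.8 CPM in WT hypoxia, and at 18.1, 16.5 and 19.2 and 48.7, 53.1 and 49.2 CPM in TAZKo. Its groups did not overlap, and the log2 rise was 2.02 (SE 0.11) in WT and 1.49 (SE 0.11) in TAZKo.

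Plin2, the perilipin that coats the droplets of most cells, was at 73, 64.3 and 66.3 CPM in WT normoxia and at 162, 144 and 152 CPM in WT hypoxia, and at 75.8, 70.7 and 75.3 and 136, 132 and 125 CPM in TAZKo. It rose without overlap by log2 values of 1.17 (SE 0.067) and 0.82 (SE 0.067). Plin3, a perilipin that also occurs free in the cytosol, rose less (0.29 in WT and 0.26 in TAZKo). Its call was lost with library size alone in both genotypes, in WT also without WT normoxia replicate 2 or 3 or WT hypoxia replicate 1 (adjusted p up to 0.134), and in TAZKo without TAZKo normoxia replicate 1 or 2 or TAZKo hypoxia replicate 1 or 2 (adjusted p up to 0.131). The diacylglycerol acyltransferases, which complete triglyceride, moved apart. Dgat2 rose from 18.2 ± 2.24 to 29.3 ± 0.267 CPM in WT and from 21 ± 0.341 to 32.4 ± 3.77 CPM in TAZKo. Dgat1 fell, from 41.9, 42.9 and 39 to 38.6, 36.9 and 32.2 CPM in WT (-0.20 (SE 0.072, adjusted p = 0.0313)) and from 46.2, 44.2 and 44.2 to 37, 38.6 and 38.2 CPM in TAZKo (-0.24 (SE 0.071, adjusted p = 0.0136)). The Dgat1 call in WT was lost with sequencing lane as a covariate and when the 6 WT libraries were fitted alone (adjusted p up to 0.0557), and without WT normoxia replicate 2 or WT hypoxia replicate 3 (adjusted p up to 0.158). That in TAZKo was lost without TAZKo hypoxia replicate 1 (adjusted p up to 0.0516).

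**Figure D3:**
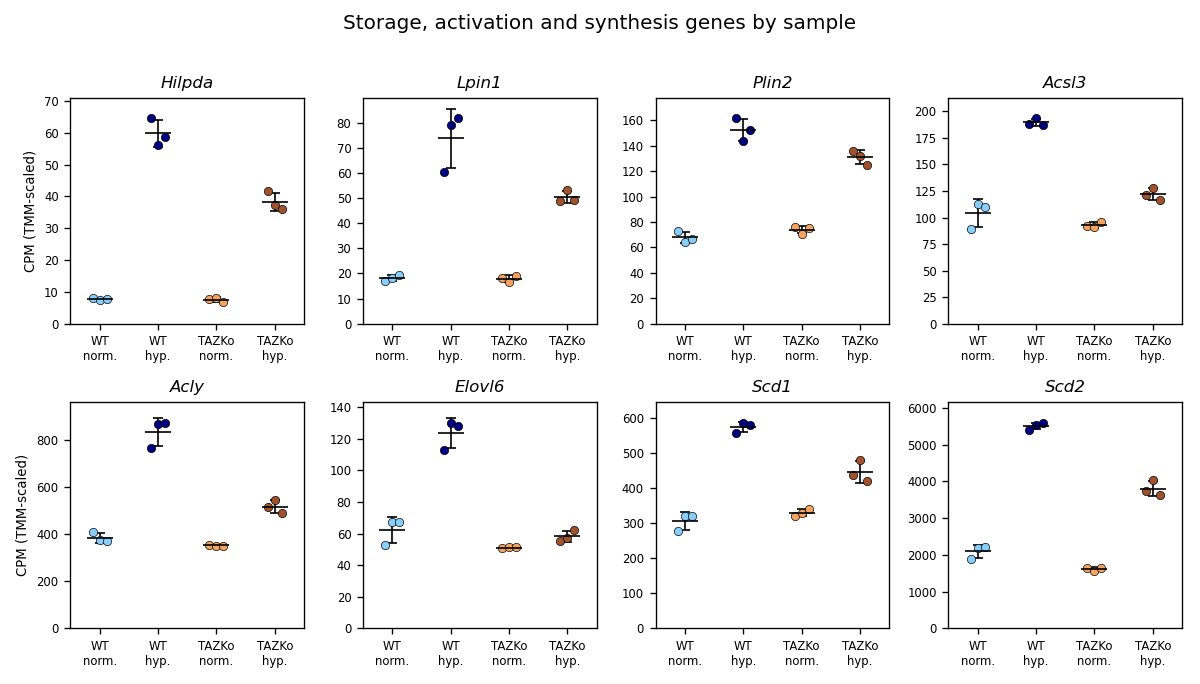
TMM-scaled CPM (y axis, linear from 0) of 8 genes of storage, activation and synthesis in each of the 12 libraries (points), with the mean and SD (n = 3) of each group (x axis: WT and TAZKo, normoxia and hypoxia). In all 8 the WT hypoxia libraries were the highest, as for Hilpda at 56.3 to 64.6 CPM against 36.1 to 41.6 CPM in the TAZKo hypoxia libraries.

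The lipases that release fatty acids from droplets are encoded by Pnpla2 and Lipe. Pnpla2, adipose triglyceride lipase, which takes the first fatty acid off triglyceride, was at 39.3 ± 6.34 CPM in WT normoxia and 40.8 ± 2.08 CPM in WT hypoxia and did not pass (0.057 (SE 0.093, adjusted p = 0.636)). Without WT normoxia replicate 1 it did, at 0.19 (adjusted p = 0.0177). Lipe, hormone-sensitive lipase, was at 31.3, 26.1 and 25.7 CPM in WT normoxia and at 25.4, 16.2 and 15.3 CPM in WT hypoxia, and it fell, with a log2 value of -0.55 (SE 0.15, adjusted p = 0.00783). The TAZKo libraries stood at 17.6, 16.6 and 17.2 CPM in normoxia and 17.9, 16.4 and 18.1 CPM in hypoxia, where the groups overlapped and it did not pass. Of the Lipe exons, 15.6% overlap exons on the opposite strand.

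Of the 5 genes of uptake and binding 3 were tested, and of these Fabp5 alone had at least 10 counts in every library. Fabp5, a fatty acid binding protein of the cytosol, was at 26.4, 24.6 and 22.7 CPM in WT normoxia and at 57.4, 59.9 and 50.4 CPM in WT hypoxia, and at 17.1, 19.5 and 17.1 and 43.2, 38.9 and 37.9 CPM in TAZKo. Its groups did not overlap, with log2 values of 1.19 (SE 0.089, adjusted p = 1.37e-07) and 1.16 (SE 0.09, adjusted p = 3.4e-07). Vldlr, the receptor for very-low-density lipoprotein, was at 1.55, 1.18 and 1.09 CPM in WT normoxia and at 10.8, 9.55 and 9.74 CPM in WT hypoxia, a log2 rise of 2.98 (SE 0.16, adjusted p = 4.98e-09). In TAZKo it was at 0.0841, 0.0866 and 0.0618 CPM in normoxia, 6 counts over 3 libraries, and at 0.34, 0.138 and 0.279 CPM in hypoxia, 19 counts. That is a ratio of 3.21 with a 95% exact counting interval of 1.23 to 9.81, which covers counting error only, and the call (adjusted p = 0.0195) was lost without TAZKo normoxia replicate 3 or TAZKo hypoxia replicate 1 or 3 (adjusted p up to 0.0907). Vldlr reached 10 counts in 0 of the 6 TAZKo libraries, so it passed the filter only through the WT groups.

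Fabp4, the adipocyte fatty acid binding protein, was low: 0.265, 0.701 and 0.326 CPM in WT normoxia and 3.9, 2.73 and 2.62 CPM in WT hypoxia, and 0.294, 0.0433 and 0.216 and 0.826, 0.933 and 1.08 CPM in TAZKo. It reached 10 counts in all 6 hypoxia libraries but in only 1 of the 6 normoxia libraries, so it too entered the test through the group where it was high. Summed counts gave a ratio of hypoxia to normoxia of 7.12 (95% exact counting interval 4.87 to 10.8) in WT and 5.06 (2.88 to 9.49) in TAZKo. Cd36 had counts in 2 of the 12 libraries, with at most 0.0866 CPM, and Fabp3 stood at or below 0.109 CPM.

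Among the transcriptional regulators, the coactivators moved in opposite directions in WT. Ppargc1b, a coactivator of oxidation and mitochondrial genes, was at 17.1, 16.3 and 15 CPM in WT normoxia and at 6.15, 4.39 and 4.98 CPM in WT hypoxia, and at 11.7, 11.7 and 11.9 and 4.22, 6.12 and 5.08 CPM in TAZKo. It fell without overlap by log2 values of -1.64 (SE 0.13, adjusted p = 2.7e-07) and -1.18 (SE 0.13, adjusted p = 9.04e-06). Ppargc1a, its better-known relative, was low, at 0.619, 1.31 and 1.38 CPM in WT normoxia, and stood at 2.8, 3.14 and 2.62 CPM in WT hypoxia. The TAZKo libraries stood at 3.66, 3.21 and 3.61 CPM in normoxia and 4.52, 4.56 and 4.53 CPM in hypoxia. Its WT rise was 1.34 (SE 0.21, adjusted p = 0.000129), and its TAZKo value of 0.37 (SE 0.17, adjusted p = 0.0832) did not pass with all libraries. Ppara, the nuclear receptor that drives oxidation genes, fell from 2.35 ± 0.25 to 1.53 ± 0.13 CPM in WT and from 3.06 ± 0.335 to 1.87 ± 0.271 CPM in TAZKo.

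Srebf1, whose product switches on synthesis genes, was at 294, 232 and 242 CPM in WT normoxia and 327, 291 and 317 CPM in WT hypoxia, and at 264, 232 and 253 and 352, 373 and 357 CPM in TAZKo. It rose by 0.28 (SE 0.084, adjusted p = 0.0121) in WT, where the groups overlapped, and by 0.53 (SE 0.085, adjusted p = 0.000201) in TAZKo, where they did not. The WT call was lost with library size alone and without WT normoxia replicate 2 or 3 or WT hypoxia replicate 1 or 3 (adjusted p up to 0.134). Ppard, the widely expressed PPAR, rose in TAZKo, from 76.1 ± 0.177 to 92.6 ± 4.22 CPM (0.28 (SE 0.092, adjusted p = 0.0232)). That call was lost with library size alone and without any 1 TAZKo normoxia library or TAZKo hypoxia replicate 1 or 2 (adjusted p up to 0.119). In WT its value was 0.19 (SE 0.092, adjusted p = 0.106) and, with the replicate block, 0.19 (adjusted p = 0.0308).

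The promoters of some members that moved are shown because the factor that responds to low oxygen, HIF, is known to bind a short core sequence. Printed is the sequence before the start site, from RefSeq on GRCm38.p6, for Hilpda, Plin2, Acly and Fasn, which rose, and for Cpt2 and Hadh, which fell in both genotypes. The windows of Lpin1 and Elovl6, which also rose in WT, held no match and are not printed. That of Echs1, which fell, held 1 GCGTG and is not printed either. The printed windows are thus examples and no measure of how often risers hold a match. Capitals mark matches to ACGTG or GCGTG on either strand, so that CACGT and CACGC are matches on the opposite strand.
Hilpda, chr6:29272238-29272487, plus strand: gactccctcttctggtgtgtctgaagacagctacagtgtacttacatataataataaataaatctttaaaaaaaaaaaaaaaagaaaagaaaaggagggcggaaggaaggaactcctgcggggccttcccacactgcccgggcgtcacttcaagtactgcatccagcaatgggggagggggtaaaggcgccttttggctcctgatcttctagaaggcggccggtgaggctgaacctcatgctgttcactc
Plin2, chr4:86670061-86670309, minus strand: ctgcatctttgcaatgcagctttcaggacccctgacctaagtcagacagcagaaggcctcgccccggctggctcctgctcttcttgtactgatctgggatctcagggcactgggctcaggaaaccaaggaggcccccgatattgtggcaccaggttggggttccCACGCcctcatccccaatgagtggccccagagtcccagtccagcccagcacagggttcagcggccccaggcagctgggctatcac
Acly, chr11:100528001-100528250, minus strand: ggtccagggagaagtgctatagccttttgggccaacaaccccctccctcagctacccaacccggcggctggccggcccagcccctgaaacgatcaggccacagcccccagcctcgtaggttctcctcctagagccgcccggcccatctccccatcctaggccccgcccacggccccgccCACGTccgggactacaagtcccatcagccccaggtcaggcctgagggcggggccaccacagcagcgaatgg
Fasn, chr11:120824548-120824797, minus strand: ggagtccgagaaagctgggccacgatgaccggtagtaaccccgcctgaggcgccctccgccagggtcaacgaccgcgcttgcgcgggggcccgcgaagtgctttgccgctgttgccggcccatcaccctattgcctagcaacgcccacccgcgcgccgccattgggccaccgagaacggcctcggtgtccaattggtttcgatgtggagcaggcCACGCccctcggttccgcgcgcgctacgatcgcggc
Cpt2, chr4:107923611-107923839, minus strand: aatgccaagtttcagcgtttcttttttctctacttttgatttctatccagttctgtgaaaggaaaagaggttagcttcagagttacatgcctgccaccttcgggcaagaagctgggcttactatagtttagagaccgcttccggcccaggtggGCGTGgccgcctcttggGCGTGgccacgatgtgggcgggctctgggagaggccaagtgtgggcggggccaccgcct
Hadh, chr3:131272102-131272351, minus strand: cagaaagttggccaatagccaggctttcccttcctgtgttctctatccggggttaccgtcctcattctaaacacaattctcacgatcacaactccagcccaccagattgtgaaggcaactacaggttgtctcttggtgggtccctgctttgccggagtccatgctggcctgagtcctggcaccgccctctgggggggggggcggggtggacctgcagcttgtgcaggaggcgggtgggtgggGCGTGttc

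A RefSeq window was found for 36 of the 45 members, and matches were counted in the 250 bases before the start, on both strands. ACGTG or GCGTG was in 21 of these 36 (58.3%), where 41.5% of 27025 genes with a window held it. Among members called in WT hypoxia it was in 7 of 13 that rose and in 8 of 8 that fell, and it was in 5 of 12 that did not pass. The printed Hilpda window held no match, and its matches (1 ACGTG and 2 GCGTG) lie in the window of a later RefSeq start, inside the first transcript. The longer CACGTG, which contains ACGTG, was in 2 of the 36 windows (5.56%, against 6.86% of all genes), and TCACNCCAC, a form of the sterol response element, in 1. These are descriptions of letters in a window and not of binding.

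The wider pathway, from lists of other genes with these roles and no members, was counted in the same way. Of 24 tested oxidation genes beyond the members, 5 rose and 14 fell in WT (79.2% called), and 5 rose and 18 fell in TAZKo (95.8% called). Over all tested genes, 26.0% rose and 25.0% fell in WT, and 22.2% rose and 21.6% fell in TAZKo. Acaa1a, a peroxisomal thiolase, fell from 50.9, 43.8 and 43.5 to 29.3, 23.9 and 21.1 CPM in WT (-0.90 (SE 0.10)). Acot2, a mitochondrial thioesterase, rose from 7.38, 9.47 and 8.69 to 21.5, 22.1 and 22.8 CPM in WT (1.38 (SE 0.11)), and it shares 27.7% of its 50-base words, mostly with Acot1. Hadha, the partner subunit of Hadhb, fell in both genotypes (-0.30 and -0.37), and was chosen after its values were seen.

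Of 24 further genes of synthesis and its control, 14 rose and 5 fell in WT, and 10 rose and 5 fell in TAZKo. Calls made up 79.2% and 62.5% of this list, where 51.0% and 43.8% of all genes were called. Insig1, which holds back the sterol-regulated transcription factors and is itself their target, rose from 38.4, 42.1 and 44 to 172, 231 and 230.2 CPM in WT (2.35 (SE 0.11)) without overlap. Mid1ip1, an activator of acetyl-CoA carboxylase, fell from 112, 105 and 101 to 72.8, 68.8 and 60.1 CPM (-0.66 (SE 0.071)). Of 23 further storage and uptake genes, 12 rose and 6 fell in either genotype (78.3% called in each, against the same 51.0% and 43.8%). Slc27a3, a fatty acid transport family member with acyl-CoA synthetase activity, rose from 24.5, 21.8 and 21.2 to 90.0, 75.8 and 87.7 CPM in WT (1.91 (SE 0.085)), and Fitm2, which helps droplets bud from the endoplasmic reticulum, fell from 17.2, 18.1 and 17.5 to 12.1, 10.5 and 12.2 CPM (-0.60 (SE 0.081)).

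Whether the hypoxia response differed by genotype was tested as the interaction, the TAZKo response minus the WT response. Of the 42 members, 5 passed, and all 5 had a smaller rise in the libraries labelled TAZKo: Elovl6, Acly, Hilpda, Acsl3 and Scd1. That is 11.9% of the members, where 2.43% of all tested genes passed (1.71% in this direction and 0.722% in the other). The members were chosen with earlier results of these data known, so this comparison is a description and not a test. The difference in log2 fold change was -0.80 (SE 0.13, adjusted p = 0.00531) for Elovl6, -0.56 (SE 0.091, adjusted p = 0.00531) for Acly, -0.59 (SE 0.13, adjusted p = 0.0292) for Hilpda, -0.47 (SE 0.11, adjusted p = 0.0438) for Acsl3 and -0.47 (SE 0.10, adjusted p = 0.0219) for Scd1, by edgeR's quasi-likelihood test. In normoxia, Acly, Hilpda, Acsl3 and Scd1 did not differ past the threshold, although Acsl3 did without WT normoxia replicate 1, at -0.26 (adjusted p = 0.00138) against -0.16 (adjusted p = 0.142) with it, and Acly without WT hypoxia replicate 1 (adjusted p down to 0.0384). In normoxia Elovl6 was lower by -0.28 (SE 0.092). In hypoxia all libraries labelled TAZKo lay below those labelled WT for each of the 5. That is no separate evidence, because the test that chose the 5 used these libraries, and the share over all genes was not counted. Elovl6 was at 124 ± 9.53 CPM in WT hypoxia and at 58.2 ± 3.48 CPM in TAZKo hypoxia, and Acly at 837 ± 59.1 and 518 ± 27.4 CPM.

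The count of 5 moved with single libraries. Elovl6 and Acly passed in all 20 alternative fits, whereas Scd1 passed in 13, Hilpda in 12 and Acsl3 in 10 of the 20. Leaving out 1 library lowered the count to 2 or 3 of the 42 for 9 of the 12 libraries, namely WT normoxia replicate 3, all TAZKo normoxia, WT hypoxia replicates 2 and 3 and all TAZKo hypoxia libraries; over the other libraries it was 4 to 6. With the scaling kept it was 2 or 3 without the same libraries other than WT normoxia replicate 3, and 4 to 7 otherwise. Lpin1 (-0.53 (SE 0.15, adjusted p = 0.0903)), Plin2 (-0.34 (SE 0.094, adjusted p = 0.0797)) and Ppargc1a (-0.97 (SE 0.27, adjusted p = 0.0846)) did not pass, although Lpin1 did without WT hypoxia replicate 1 (adjusted p down to 0.00538) and Plin2 without WT normoxia replicate 1 (adjusted p down to 0.014). Lipe passed in the other direction without WT hypoxia replicate 1 (adjusted p down to 0.00311). Scd2, with the largest synthesis rise, did not pass either (-0.17 (SE 0.093, adjusted p = 0.425)), nor did Fasn (-0.14 (SE 0.10, adjusted p = 0.555)). Of the 19 members that rose in WT, 18 had a smaller log2 rise in TAZKo, and of the 19 that rose in TAZKo, 16 did. Of the 10 that fell in WT, 7 had a smaller fall in TAZKo, and of the 10 that fell in TAZKo, 6 did. These counts carry no test, and the same shares over all genes were not counted. In the oxidation class 0 of 11 members passed with edgeR (0 at an unadjusted p under 0.05, and 0 with DESeq2). Of the 71 tested genes of the wider lists, 5 passed (7.04%, against 2.43% of all genes), all with a smaller rise in TAZKo: Acss2, Acot2, Insig1, Hsd17b12 and Gpat3. Acss2, which makes acetyl-CoA from acetate, showed -1.24 (SE 0.11, adjusted p = 0.00016).

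In normoxia, 5 members were higher and 10 were lower under the TAZKo label than under the WT label. These 15 are 35.7% of the 42, where 30.4% of all tested genes differed (15.6% higher and 14.9% lower). In hypoxia 23 differed, 7 higher and 16 lower, which is 54.8% where 32.8% of all genes differed (15.8% higher and 16.9% lower). In both conditions 5 were higher and 8 lower, and 0 changed direction. Without WT normoxia replicate 1, 18 differed in normoxia and 27 in hypoxia. The genotype differences ran along whole chromosomes: the median log2 difference of all genes was -0.27 in normoxia and -0.28 in hypoxia on chromosome 19, which holds Acsl5, Cpt1a, Fads1, Fads2, Scd1, Scd2 and Vldlr. On chromosome 18, with Acaa2 and Ppargc1b, it was -0.22 and -0.28, and on chromosome 8, with Acsl1, -0.16 and -0.15. On all other chromosomes that hold members it lay between -0.067 and 0.13. The part of these chromosome-wide shifts in the members' differences was not tested. Of the 33 tested members off chromosomes 18 and 19, 4 were higher and 4 lower in normoxia, and 6 higher and 10 lower in hypoxia.

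**Figure D4:**
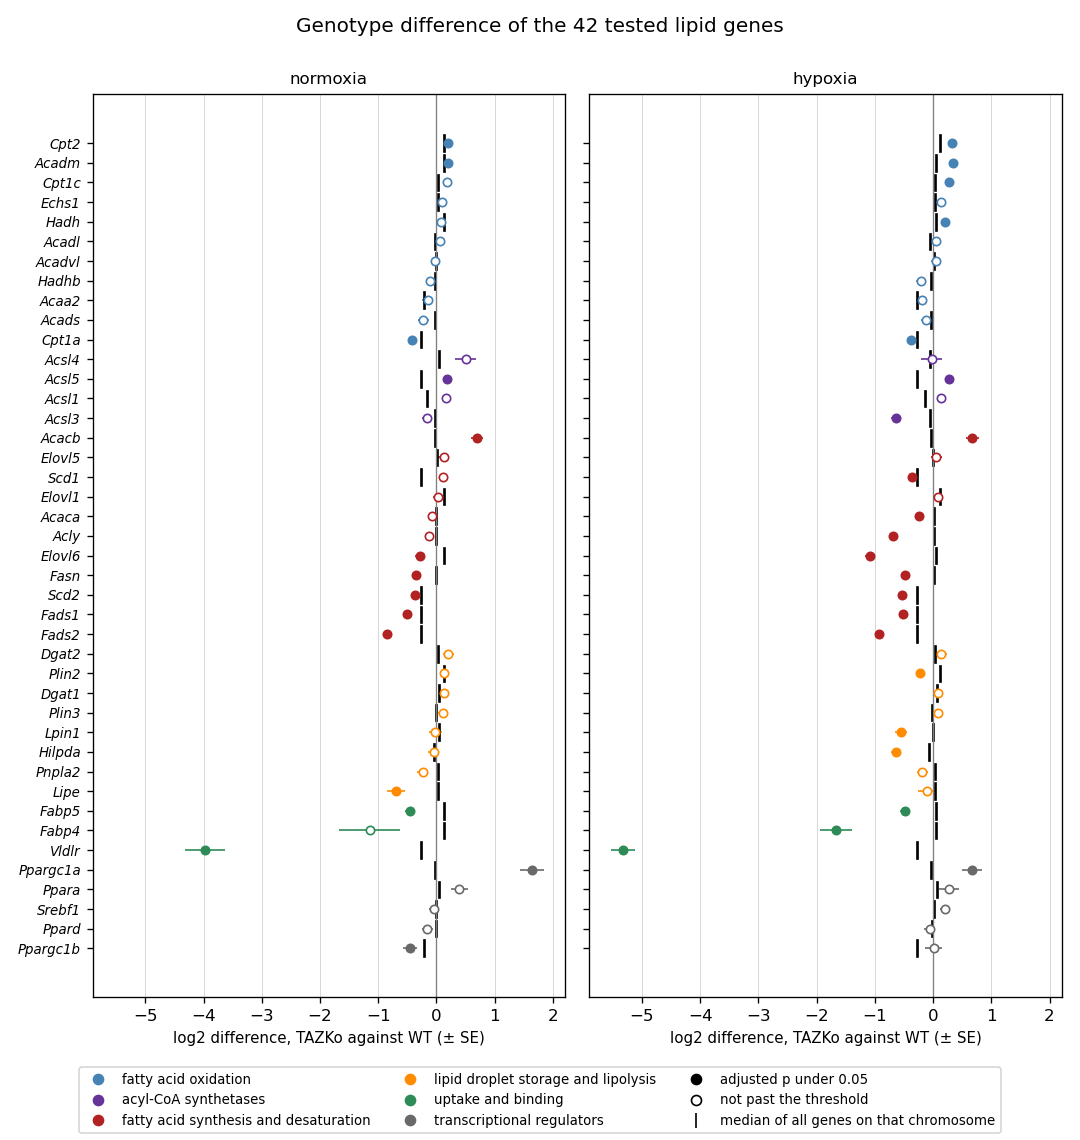
Log2 difference (x axis, TAZKo against WT, ± SE, n = 3 libraries per group) of each of the 42 tested genes (y axis) in normoxia (left) and hypoxia (right), coloured by class; filled points passed an adjusted p of 0.05 in edgeR's quasi-likelihood test, and the black ticks give the median of all genes on that gene's chromosome. Most synthesis genes lay below 0 in hypoxia, Vldlr stood farthest out at -3.97 and -5.33 (fitted values from few counts in the TAZKo libraries), and Ppargc1a and Acacb stood to the right in both panels.

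The synthesis class held 5 of the 10 lower members in normoxia and 8 of the 16 in hypoxia. Of its 11 members, 5 were lower and 1 higher in the libraries labelled TAZKo in normoxia, and 8 were lower and 1 higher in hypoxia, with a median of -0.13 and -0.48. Calls made up 54.5% and 81.8% of the class, where 30.4% and 32.8% of all genes were called. Fads2, the desaturase that starts polyunsaturated chain synthesis, was at 251, 233 and 243 CPM in the WT normoxia libraries and at 132, 131 and 141 CPM in those labelled TAZKo. In hypoxia it was at 345, 321 and 326 CPM and 173, 177 and 174 CPM, and the groups did not overlap in either condition. Its log2 difference was -0.84 (SE 0.055, adjusted p = 1.01e-07) in normoxia and -0.92 (SE 0.055, adjusted p = 5.09e-08) in hypoxia, beside a chromosome median of -0.27 and -0.28. On the same chromosome, Fads1 differed by -0.51 and -0.52, and Scd2 by -0.37 and -0.53. Scd1 was at 307 ± 25.8 and 331 ± 9.43 CPM in normoxia, where it did not pass, and was lower in hypoxia by -0.36 (SE 0.069, adjusted p = 0.00118).

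Off those chromosomes, Elovl6 was the lowest synthesis gene in hypoxia, at 113, 129.9 and 128 CPM in WT and 55.5, 56.9 and 62.1 CPM in TAZKo, a log2 difference of -1.09 (SE 0.091, adjusted p = 1.22e-06) beside a chromosome median of 0.044. In normoxia it differed by -0.28 (SE 0.092, adjusted p = 0.0316), a call lost without WT normoxia replicate 2 or 3 or any 1 TAZKo normoxia library (adjusted p up to 0.113). Acly was lower in hypoxia, by -0.69 (SE 0.065, adjusted p = 3.22e-06), and its normoxia value of -0.13 (SE 0.065, adjusted p = 0.152) did not pass. Fasn was lower in both conditions, by -0.34 (SE 0.072) and -0.48 (SE 0.072), and Acaca was lower in hypoxia by -0.24 (SE 0.066, adjusted p = 0.0122), a call lost when genes with low counts were kept and without TAZKo hypoxia replicate 1 (adjusted p up to 0.0607). Acacb went the other way: it was at 15.2, 11.3 and 12.7 CPM in WT and at 21.1, 19.8 and 22.3 CPM in TAZKo in normoxia, and at 10.4, 9.01 and 9.09 and 16.3, 15 and 14.1 CPM in hypoxia. The Acacb groups did not overlap, with log2 differences of 0.69 (SE 0.10, adjusted p = 0.000227) and 0.67 (SE 0.11, adjusted p = 0.000381).

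In the oxidation class the log2 differences ranged from -0.42 to 0.20 in normoxia and from -0.37 to 0.34 in hypoxia. Cpt1a was at 144, 133 and 132 CPM in WT and 105, 102 and 99.2 CPM in TAZKo in normoxia, and at 135, 125 and 121 and 96.5, 103 and 94.9 CPM in hypoxia. It was lower without overlap in both, by -0.42 (SE 0.061, adjusted p = 0.000149) and -0.37 (SE 0.061, adjusted p = 0.000412), beside chromosome medians of -0.27 and -0.28. Acadm, medium-chain acyl-CoA dehydrogenase, was higher, at 62.8, 58.4 and 59.6 CPM against 54.5, 51 and 51.8 CPM in normoxia and 61.2, 62.7 and 62.5 against 52.8, 47.5 and 47.4 CPM in hypoxia (0.34 (SE 0.061, adjusted p = 0.000852)). Cpt2 was higher by 0.20 (SE 0.062) and 0.32 (SE 0.064), beside chromosome medians of 0.128 and 0.125. For Acadm the chromosome median was 0.131 in normoxia, where its log2 difference was 0.20, and 0.044 in hypoxia. The normoxia calls of Acadm and Cpt2 each passed in only 2 of the 12 fits that left out 1 library and chose the scaling anew, those without WT normoxia replicate 1 and without WT hypoxia replicate 1 (adjusted p elsewhere up to 0.142 and 0.178). With the scaling kept each passed in 8 of 12, and was lost without WT normoxia replicate 2 or 3 or TAZKo normoxia replicate 1 or 3 (up to 0.0879 and 0.0982). In hypoxia Cpt1c was also higher (0.28 (SE 0.071, adjusted p = 0.00904)), as was Hadh (0.20 (SE 0.063, adjusted p = 0.0236)), whose call was lost without WT hypoxia replicate 2 or 3 or TAZKo hypoxia replicate 1 or 2 (adjusted p up to 0.12). Without WT normoxia replicate 1, Cpt1c was higher in normoxia too, at 0.24 (adjusted p = 0.0114), and Hadhb was lower in hypoxia, at -0.20 (adjusted p = 0.027). Acads did not pass in normoxia, at -0.22 (SE 0.088, adjusted p = 0.0715), and with the replicate block it was -0.22 (adjusted p = 0.0169); it also passed without WT normoxia replicate 2 or 3 or any 1 WT hypoxia library (adjusted p down to 0.0239).

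Among the synthetases, Acsl3 was lower in hypoxia, at 122, 128 and 116 CPM in TAZKo against 188, 194 and 187 CPM in WT (-0.64 (SE 0.079, adjusted p = 4.02e-05)), and in normoxia its groups overlapped, with replicate 1 the lowest WT library. Acsl5 was higher, at 62.2, 58.2 and 55.2 CPM against 49.7, 50.5 and 53.9 CPM in normoxia and 66.9, 69.5 and 66.5 against 58.3, 55.4 and 54.9 CPM in hypoxia. Its log2 difference was 0.19 (SE 0.062, adjusted p = 0.0337) and 0.27 (SE 0.061, adjusted p = 0.00436), where the genes of its chromosome had medians of -0.27 and -0.28. The normoxia call passed in 0 of the 12 fits that left out 1 library and chose the scaling anew (adjusted p up to 0.227) and in 8 of 12 with the scaling kept, where it was lost without WT normoxia replicate 1 or 2 or TAZKo normoxia replicate 1 or 2 (up to 0.139). Acsl1 at 0.16 (SE 0.059, adjusted p = 0.0511) and Acsl4 at 0.50 (SE 0.18, adjusted p = 0.0515) did not pass in normoxia, and with the replicate block they stood at 0.16 (adjusted p = 0.0441) and 0.52 (adjusted p = 0.00523). Acsl1 also passed without WT normoxia replicate 3 or WT hypoxia replicate 1 (adjusted p down to 0.045) and Acsl4 without WT normoxia replicate 2 or 3 or TAZKo normoxia replicate 1 (adjusted p down to 0.0173). In hypoxia Acsl1 passed without WT normoxia replicate 1 (adjusted p down to 0.0482). For Acsl4 the lowest library was WT normoxia replicate 1, at 130.5 CPM.

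Of the 8 storage genes, 1 differed in normoxia (12.5%, against 30.4% of all genes) and 3 in hypoxia (37.5%, against 32.8%). All those that differed were lower in the libraries labelled TAZKo. Without WT normoxia replicate 1 there were 3 in normoxia, Lipe lower, and Dgat2 at 0.30 (adjusted p = 0.015) and Plin2 at 0.18 (adjusted p = 0.0376) higher, and 4 in hypoxia, all lower, with Pnpla2 at -0.19 (adjusted p = 0.0137). Lipe was at 17.6, 16.6 and 17.2 CPM in TAZKo against 31.3, 26.1 and 25.7 CPM in WT in normoxia, a log2 difference of -0.69 (SE 0.15, adjusted p = 0.00343) without overlap. In hypoxia Hilpda was lower, at 41.6, 37.4 and 36.1 against 64.6, 56.3 and 58.8 CPM (-0.64 (SE 0.082, adjusted p = 4.69e-05)), while in normoxia it stood at 7.52 ± 0.76 and 7.74 ± 0.342 CPM. Lpin1 was lower in hypoxia by -0.55 (SE 0.10, adjusted p = 0.000919) and did not pass in normoxia (-0.023 (SE 0.11, adjusted p = 0.903)). Plin2 was lower in hypoxia by -0.22 (SE 0.066, adjusted p = 0.0198), a call lost without WT hypoxia replicate 1 or 3 or TAZKo hypoxia replicate 2 or 3 (adjusted p up to 0.0873). Pnpla2 stood at -0.24 (SE 0.093, adjusted p = 0.0689) in normoxia, and with the replicate block at -0.23 (adjusted p = 0.036); it also passed without WT normoxia replicate 2 or 3 or WT hypoxia replicate 1 or 2 (adjusted p down to 0.0101).

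Of the 3 tested uptake genes, Vldlr and Fabp5 were lower in both conditions and Fabp4 in hypoxia. Vldlr had 6 counts over the TAZKo normoxia libraries against 92 in WT, so that the WT level was 16.6 times that in TAZKo (95% exact counting interval 7.36 to 46.5). In hypoxia it had 19 counts against 696, a WT level 41.1 times as high (26.1 to 68.6). The libraries did not overlap in either condition. Fabp5 was lower by -0.45 (SE 0.092, adjusted p = 0.00194) in normoxia and -0.48 (SE 0.086, adjusted p = 0.00076) in hypoxia. Fabp4 was lower in hypoxia, with a WT level 3.15 times that in TAZKo (95% exact counting interval 2.41 to 4.16), and did not pass in normoxia (adjusted p = 0.121). Of the wider lists, Lpl, lipoprotein lipase, which frees fatty acids from lipoproteins outside the cell, was at 228, 272 and 274 CPM in WT and 94.3, 103 and 108 CPM in TAZKo in normoxia (-1.34 (SE 0.076, adjusted p = 2.42e-08)). Other uptake genes of those lists were higher: Lrp1, a large receptor of the same family as Vldlr, by 0.35 (SE 0.088, adjusted p = 0.00908) and 0.84 (SE 0.089, adjusted p = 9.8e-06), Slc27a3 by 0.44 and 0.30, and Slc27a1, a fatty acid transport protein, by 0.32 (SE 0.071, adjusted p = 0.00368) in hypoxia. The endothelial marker Tek, a receptor kinase, was at 15.1, 15.3 and 17.4 CPM in WT and 4.2, 4.81 and 5.71 CPM in TAZKo in normoxia, and at 16.5, 12.4 and 11.1 and 2.72, 3.63 and 3.13 CPM in hypoxia. Of the other endothelial markers, Kdr was also lower, at 3.15 ± 0.604 CPM in WT and 0.997 ± 0.11 CPM in TAZKo in normoxia. Pecam1 was higher in TAZKo normoxia, at 0.576 ± 0.0623 against 0.227 ± 0.123 CPM, and Cdh5 and Tie1 were near 0 in every group. Tek was thus lower in the same libraries as Vldlr and Lpl, and its part in their differences was not tested.

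Among the regulators, Ppargc1a was higher in the libraries labelled TAZKo, at 3.66, 3.21 and 3.61 CPM against 0.619, 1.31 and 1.38 CPM in normoxia and 4.52, 4.56 and 4.53 against 2.8, 3.14 and 2.62 CPM in hypoxia. The groups did not overlap, and the log2 difference was 1.64 (SE 0.20, adjusted p = 3.87e-05) and 0.67 (SE 0.17, adjusted p = 0.00851). Ppargc1b was lower in normoxia, at 11.7, 11.7 and 11.9 against 17.1, 16.3 and 15 CPM (-0.45 (SE 0.12, adjusted p = 0.0108), beside a chromosome median of -0.22). In hypoxia the Ppargc1b groups overlapped, at 5.14 ± 0.948 and 5.17 ± 0.893 CPM. Ppara, Ppard and Srebf1 did not pass in either condition, although Srebf1 did in hypoxia without WT normoxia replicate 1 (adjusted p down to 0.00742). From the wider lists, Acot2 (1.26 (SE 0.11, adjusted p = 1.93e-06)), Slc27a3 (0.44 (SE 0.085, adjusted p = 0.0015)) and Acss2 (0.24 (SE 0.084, adjusted p = 0.0454)) were higher in normoxia, and Crot, a peroxisomal carnitine acyltransferase (-0.55 (SE 0.094, adjusted p = 0.000618)), and Insig1 (-0.44 (SE 0.11, adjusted p = 0.00808)) were lower.

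Levels per kilobase were divided by all annotated exon bases of a gene, which can exceed the length of its transcript, so rankings depend on the annotation. By this measure the desaturases and Acly stood highest among the members in WT normoxia: Scd2 at 384 CPM per kilobase, Fads1 at 82.1, Fads2 at 73.5, Acly at 73.2 and Scd1 at 62.7. The highest oxidation gene by this measure was Acads, at 58.7 CPM per kilobase over 2269 exon bases. Echs1 had more counts than Acads in WT normoxia (162.5 against 133.1 CPM) but stood at 19.6 CPM per kilobase over 8286 annotated exon bases. In WT hypoxia Acly stood at 159, Fasn at 79.7 and Acads at 34.9 CPM per kilobase. Acaca was at 1.53 and Acacb at 1.36 CPM per kilobase in WT normoxia. Among the droplet genes in WT hypoxia, Plin2 stood at 43.4, Hilpda at 54.3 and Lpin1 at 7.63 CPM per kilobase.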

How the data were processed

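RNA from 12 libraries of mouse embryonic fibroblasts was made into libraries with the TruSeq RNA v2 kit, per the labels' protocols. The authors deposited raw read counts per Ensembl gene for each library; the submitters' processing notes name the mm10 build, and the aligner, counter and strand setting are not given in the sources used here. Of 48709 identifiers, 48349 matched a symbol in the GENCODE M21 annotation.

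Counts of all 12 libraries were fitted together in edgeR 4.0.16 (R 4.3.3) with TMM scaling, filterByExpr on the 4 groups and a quasi-likelihood test of 5 contrasts, with p-values adjusted over 14408 genes. SE is the log2 fold change divided by the square root of F. The pipeline was tested on simulated counts with few changed genes, as many raised as lowered. That setting does not check the scaling where 51.0% of genes are called, as in WT hypoxia. Groups came from the sample titles. Intervals of low counts are exact (95%) and cover counting error only. The sequencing lane comes from the file labels.

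Members and lists were chosen with earlier results of these data known. Genes given in every sample are, within each class, the largest called rise and fall in each hypoxia and genotype contrast and every member called in the interaction; some further members are given too. Alternatives were other scalings, filters, DESeq2 1.42.0, a replicate block, lane, 6 samples alone and leaving out each library; leaving out each with genes and scaling kept was added after the data were seen.

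Replicate numbers come from the titles. Deviations of same-numbered libraries correlated by 0.368, 0.204 and 0.152 between WT normoxia and WT hypoxia, and by 0.354, 0.149 and 0.228 between WT and TAZKo normoxia. WT normoxia replicate 3 correlated more with a WT hypoxia library of another number (0.18). The main fits held no block, so their p-values are unpaired, and blocked values for these contrasts are given where they change a call. Replicate 1 was on lane 4 and replicate 3 on lane 5 in every group, so number and lane overlap. For the other pairs of groups at least 1 correlation was under 0.1.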

Additional observations from a re-analysis of the deposited data

Results flagged for a closer look

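The hypoxia response of 5 members differed between the genotypes by the interaction test of edgeR, each with a smaller rise in the libraries labelled TAZKo. The difference in log2 fold change, TAZKo minus WT, was -0.80 for Elovl6 (adjusted p = 0.00531), -0.56 for Acly (0.00531), -0.59 for Hilpda (0.0292), -0.47 for Acsl3 (0.0438) and -0.47 for Scd1 (0.0219). Over the alternative fits the adjusted p ranged up to 0.0302 for Elovl6, 0.0316 for Acly, 0.109 for Hilpda, 0.14 for Acsl3 and 0.0955 for Scd1.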

How the results depend on the processing

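Of the 101 member changes past the threshold, 81 passed in every alternative but those of the next sentence, 20 were lost in at least 1, and 0 turned direction. In the 12 fits that left out 1 library but kept genes and scaling, an alternative chosen after seeing the data, 80 passed throughout, all of them among the 81. The Lpin1 difference between genotypes in normoxia, not past the threshold, ranged from -0.1107 to 0.03348 leaving out 1 library. The number of members called was within 1.5 times the main count in every setting for both hypoxia contrasts (29 members in each, 24 to 34 leaving out 1 library) and both genotype contrasts (15 in normoxia, 11 to 18; 23 in hypoxia, 21 to 27). The 5 interaction calls became 9 when genes with low counts were kept, and 2 to 7 leaving out 1 library.

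With the replicate block, 32 members were called in WT hypoxia, 33 in TAZKo hypoxia, 19 and 25 between genotypes in normoxia and hypoxia, and 7 in the interaction. The lower same-number correlations were 0.0277, -0.0245 and 0.0946 (TAZKo) and 0.0551, -0.0237 and 0.121 (hypoxia). For these contrasts and the interaction, the block added Acaa2, Acsl4, Elovl1 and Elovl6 in TAZKo hypoxia, Acaa2 and Srebf1 between genotypes in hypoxia, and Plin2 and Lpin1 in the interaction. In WT hypoxia the block added Hadhb, Acaa2 and Ppard, and between genotypes in normoxia Acads, Acsl1, Acsl4 and Pnpla2. It changed no other member call. A term for sequencing lane gave counts of 30, 30, 18, 23 and 6. Fitting only the 6 libraries compared gives no interaction and was not run for it. Of 80 group means of named members, 24 moved by over 1 SD with library size alone. Depth limits Vldlr in the libraries labelled TAZKo and Fabp4 in the normoxia libraries.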
